A study of Mus musculus with 9 samples.

Results

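The JmjC histone demethylases described here are 10 mouse genes, Kdm2a, Kdm2b, Kdm3a, Kdm3b, Kdm4a, Kdm4b, Kdm4c, Kdm5a, Kdm5b and Kdm6b, of the 34866 genes in the deposited tables. They were chosen by name, with earlier results of these data known, and each symbol was matched to 1 Ensembl gene. All cells were primary mouse macrophages grown in alpha-MEM with FBS and L929-conditioned medium, in which the L929 fibroblast line supplies macrophage colony-stimulating factor. The standard oxygen group was kept in standard oxygen for 7 days. The acute hypoxia group had the same culture followed by 3 h in 1% oxygen, and the chronic hypoxia group spent all 7 days in 1% oxygen. Each group had 3 biological replicates, so 9 libraries of polyadenylated RNA were compared. Strain, sex and tissue of origin were not given in the sources used here. The sample descriptions also carry strings of digits, each shared by 1 library of every group, whose meaning is not stated. They are called codes X, Y and Z below, and values are listed in that order within each group. Expression is given as TPM, a transcript abundance scaled for transcript length and brought to the same total in every library.

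JmjC demethylases are dioxygenases that remove methyl groups from histone lysines, using molecular oxygen and 2-oxoglutarate as co-substrates and ferrous iron as cofactor. Because oxygen is consumed in each reaction, the activity of several of them is known to fall when oxygen is scarce, while transcription of some, Kdm3a and Kdm4b among them, is known to be induced by the hypoxia-inducible factors in several cell types. In macrophages Kdm6b is best known as a gene induced by inflammatory stimuli. The families differ in their substrates: KDM3 enzymes act on methylated H3K9, KDM4 enzymes on trimethylated H3K9 and H3K36, KDM2 enzymes on H3K36, KDM5 enzymes on H3K4 and Kdm6b on H3K27. The libraries measured transcripts of these enzymes and not their activity or the histone marks.

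The genes lie on 8 chromosomes of GRCm38. Kdm3a is at chr6:71588972-71632990, Kdm4b at chr17:56326062-56402870, Kdm2a at chr19:4314419-4398285 and Kdm5a at chr6:120364124-120444574. Kdm5b is at chr1:134560171-134635285, Kdm6b at chr11:69398508-69413675 and Kdm2b at chr5:122870665-122989823. Kdm4a at chr4:118136957-118180043 and Kdm4c at chr4:74242497-74405860 share a chromosome, as do Kdm3a and Kdm5a. Kdm3a, Kdm4a, Kdm2a, Kdm2b and Kdm6b are on the minus strand.

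The sequence upstream of a start site is shown for Kdm3a, the member that passed the test without a block, and for Kdm5b, which had the core letters of the hypoxia response element at both ends of its window. RefSeq windows of 250 bases upstream of a start site (GRCm38.p6) were held for 5 of the 10 members, Kdm2b, Kdm3a, Kdm4a, Kdm4c and Kdm5b. They were searched on both strands for ACGTG and GCGTG, the core letters bound by hypoxia-inducible factors (CACGTG holds a match on each strand). Of 11 windows for these members, 7 held a match, against 12659 of all 32817 windows (38.6%). Windows of a gene can overlap, so these counts are not of separate stretches. The Kdm2b windows chr5:122900351-122900600 and chr5:122900368-122900617 hold the same matches. Every Kdm2b window held a match, and most of the 7 windows with a match were those of Kdm2b. Capitals mark the matches, bases of annotated exons are left out of the longer runs, and each run reads 5′ to 3′ on the gene's strand.
Kdm3a upstream, chr6:71632991-71633167, minus strand: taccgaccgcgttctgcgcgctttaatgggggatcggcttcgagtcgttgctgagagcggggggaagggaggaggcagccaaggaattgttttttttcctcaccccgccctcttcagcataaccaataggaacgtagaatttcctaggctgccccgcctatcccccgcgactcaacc
Kdm3a match, chr6:71632927-71632956, minus strand: ccgggaggctgtGCGTGtcttgtgagagag
Kdm5b upstream, chr1:134559928-134560170, plus strand: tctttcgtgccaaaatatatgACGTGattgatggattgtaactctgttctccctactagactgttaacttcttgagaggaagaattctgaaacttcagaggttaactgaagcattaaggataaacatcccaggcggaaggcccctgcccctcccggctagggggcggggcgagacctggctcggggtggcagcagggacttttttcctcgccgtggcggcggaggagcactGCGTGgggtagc

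The match of Kdm3a lay 27 bases upstream of a RefSeq start site, in bases that GENCODE M21 counts as a Kdm3a exon. There were 0 matches in the 177 bases shown. The Kdm3a windows of other start sites, chr6:71609140-71609389 and chr6:71632687-71632936, held no match. The matches of Kdm5b lay 229 and 19 bases upstream of its start site. The 1 window of Kdm4a held no match. For Kdm4c, chr4:74242247-74242496 held no match and chr4:74251629-74251878 held 6. A match shows only that these letters are present, and binding was not measured.

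All 10 genes were expressed in every library. Macrophage markers were at levels of this cell type, with Lyz2 (lysozyme) between 52793 and 70403 TPM and the CSF1 receptor gene Csf1r between 439 and 778 TPM, and all 9 macrophage markers had a mean of at least 1 TPM. No marker on the T and NK cell, B cell, dendritic cell, fibroblast or erythroid lists reached a mean of 1 TPM, and 1 marker each did on the endothelium and epithelium lists. The 3 code Z libraries stood apart from the other 6 in some macrophage markers. C1qa, a complement subunit of mature macrophages, was at 0.910 to 3.41 TPM in them and at 65.3 to 443 TPM elsewhere. The efferocytosis receptor gene Mertk was at 2.21 to 3.37 against 21.8 to 33.3 TPM. Adgre1, Cd68, Csf1r and Lyz2 overlapped between code Z and the rest. So did the summed macrophage markers, at 56608 to 66800 TPM in code Z and 62270 to 74857 TPM elsewhere. The libraries had 10724 to 11208 genes at 1 TPM or more, and the read depth behind these values is unknown. In RNA from a whole culture, fewer expressing cells and less RNA per cell cannot be told apart.

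Kdm2a had the highest mean of the 10 in every group and Kdm6b the lowest. In standard oxygen the order was Kdm2a, Kdm4a, Kdm3a, Kdm5a, Kdm3b, Kdm2b, Kdm4b, Kdm5b, Kdm4c and Kdm6b, from 23.3 ± 5.90 to 2.20 ± 1.44 TPM (mean ± SD, n = 3). Of the 9 neighbouring pairs in that order, only Kdm2a and Kdm4a, Kdm4a and Kdm3a, and Kdm4c and Kdm6b had values that did not overlap. In acute hypoxia Kdm4b moved from the seventh to the second place, behind Kdm2a and ahead of Kdm3a, but neither neighbour was separate from it. In chronic hypoxia the order began with Kdm2a, Kdm3a, Kdm5a and Kdm4b, with Kdm2a separate from Kdm3a and Kdm3a from Kdm5a. Summed over the 10 genes, the level was 139 ± 19.8 TPM in standard oxygen. It was 180 ± 24.1 TPM in acute hypoxia, and the chronic libraries had 190 ± 18.4 TPM (SD, n = 3).

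**Figure D1:**
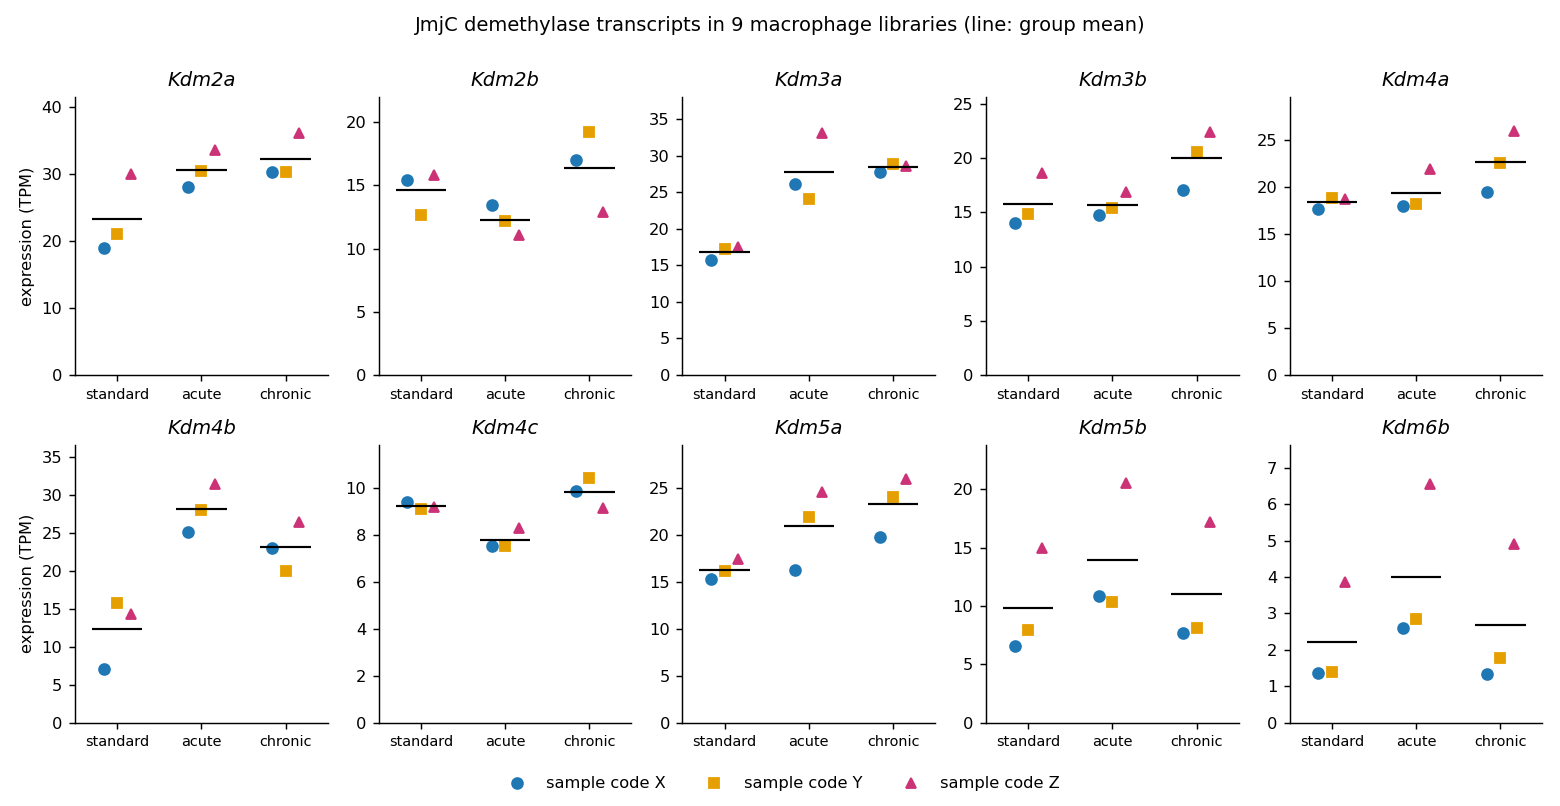
Expression of the 10 demethylases in TPM (y axis, linear, a scale for each gene) in standard oxygen, acute and chronic hypoxia (x axis). Each symbol is 1 library, its shape and colour give the sample code, and the line is the group mean. Kdm3a lies between 15.7 and 17.5 TPM in standard oxygen and at 24.0 TPM or more in both hypoxia groups, while code Z is the highest library of every group for Kdm5b and Kdm6b.

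Among the H3K9 demethylases, Kdm3a had higher levels in both hypoxia groups than in standard oxygen. Its level in standard oxygen was 15.7, 17.2 and 17.5 TPM. After 3 h of hypoxia it was 26.1, 24.0 and 33.0 TPM, and after 7 days it was 27.7, 28.9 and 28.5 TPM. Neither hypoxia group overlapped standard oxygen, and the chronic libraries lay closer together than the acute ones. In chronic hypoxia Kdm3a rose 1.69-fold in mean TPM, a log2 fold change of 0.72 with an SE of 0.10 on the log2(TPM + 1) scale (limma, Benjamini-Hochberg adjusted p = 0.0271, higher in 3 of 3 code pairs). In acute hypoxia the ratio was 1.65 and the log2 fold change 0.68 with an SE of 0.14, which did not pass (limma, adjusted p = 0.223, or 0.0889 with the code as a block, higher in 3 of 3 pairs). The chronic and acute groups differed by 0.05 in log2 (limma, adjusted p = 0.883). The chronic call was lost when the standard library of code X or Y was left out (adjusted p = 0.150 and 0.137 by limma) or the chronic library of code X or Y (0.106 and 0.146), with log2 fold changes of 0.68 to 0.74. Its paralogue Kdm3b, at chr18:34777047-34838660, measured 14.0, 14.8 and 18.6 TPM in standard oxygen. It measured 14.7, 15.4 and 16.9 TPM in acute hypoxia and 17.0, 20.6 and 22.5 TPM in chronic hypoxia. The chronic values lay above all acute ones but overlapped those in standard oxygen. No contrast passed when all 6 libraries were fitted (log2 difference of chronic from acute 0.33, SE 0.13, limma adjusted p = 0.228). With the code block and without code Z, the chronic difference of Kdm3b from standard oxygen passed (limma, adjusted p = 0.0383). That fit had fewer libraries per group and was chosen after seeing the data, and 35% of all genes passed in it. The transcript Gm26538, on the opposite strand, shares 3468 exon bases with Kdm3b. Gm26538 is not among the deposited genes, and 0% of the 75-base stretches of the longest Kdm3b transcript occur in another deposited gene. Whether the reads were counted by strand is not given in the sources used here, so the Kdm3b values are uncertain.

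Kdm4b, which acts on H3K9 and H3K36, had the widest range of group means of the 10. Its level was 7.06, 15.7 and 14.3 TPM in standard oxygen. It was 25.1, 28.0 and 31.4 TPM after 3 h of hypoxia and 23.0, 19.9 and 26.4 TPM after 7 days. Every hypoxic library was above every standard library, and the standard libraries differed among themselves, with code X at 0.450 of code Y. The acute mean was 2.28 times the standard mean, with a log2 fold change of 1.19 and an SE of 0.28. This did not pass (limma, adjusted p = 0.282, or 0.0880 with the code block). In chronic hypoxia the log2 fold change was 0.91 with an SE of 0.29 (limma, adjusted p = 0.133, or 0.0631 with the code block). Within the code pairs the acute difference ran from 0.80 in Y to 1.70 in X, and the chronic one from 0.33 in Y to 1.58 in X. Chronic values were below acute ones in all 3 pairs, by 0.28 in log2 on average (limma, adjusted p = 0.313).

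The other KDM4 genes differed less. Kdm4a measured 17.6, 18.8 and 18.7 TPM at standard oxygen, 18.0, 18.2 and 21.9 TPM in acute and 19.5, 22.6 and 26.0 TPM in chronic hypoxia. The chronic libraries all lay above the standard ones, with a log2 fold change of 0.28 and an SE of 0.13 (limma, adjusted p = 0.251). Kdm4c had its lowest values in acute hypoxia: 9.44, 9.11 and 9.20 TPM at standard oxygen, 7.55, 7.54 and 8.33 TPM in acute and 9.90, 10.5 and 9.18 TPM in chronic hypoxia. All acute libraries lay below all standard and all chronic ones. Neither the log2 difference of −0.22 from standard oxygen nor that of 0.30 between chronic and acute hypoxia passed (limma, adjusted p = 0.789 and 0.214).

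Of the H3K36 demethylases, Kdm2a was higher in hypoxia in each code pair. It measured 18.9, 21.0 and 30.0 TPM at standard oxygen, 28.0, 30.4 and 33.5 TPM in acute and 30.2, 30.3 and 36.1 TPM in chronic hypoxia. The standard library of code Z stood above the other standard libraries and overlapped the acute group, while every chronic library was above it. The chronic log2 fold change was 0.47 with an SE of 0.19. It passed with the code as a block (limma, adjusted p = 0.0390), not without a block (0.198) and not with the block after rescaling the libraries (log2 0.30, adjusted p = 0.122). Without code Z and without a block it was 0.58 (limma, adjusted p = 0.0170), in a fit of fewer libraries where 21.1% of all genes passed. The acute log2 fold change was 0.40 with an SE of 0.18 (limma, adjusted p = 0.743, or 0.225 with the code block).

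Kdm2b, whose protein binds CpG islands and recruits a Polycomb complex, measured 15.5, 12.7 and 15.8 TPM in standard oxygen. It measured 13.5, 12.1 and 11.1 TPM in acute and 17.0, 19.2 and 12.8 TPM in chronic hypoxia. It was lower in acute hypoxia in 3 of 3 pairs (log2 fold change −0.24, limma, adjusted p = 0.854) and higher in chronic than in acute hypoxia in 3 of 3 (0.38, adjusted p = 0.258). These values are uncertain. Of the 75-base stretches of the longest Kdm2b transcript, 21.4% also occur in other listed genes, Gm12397 and Rnf34. Rnf34 shares 627 exon bases with Kdm2b on the opposite strand. Rnf34, a ubiquitin ligase gene, was at 15.9 ± 2.38 TPM in standard oxygen and 10.4 ± 1.30 TPM in chronic hypoxia (SD, n = 3), and whether the reads were counted by strand is not given in the sources used here.

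Of the H3K4 demethylases, Kdm5a was higher in chronic hypoxia in all pairs. It measured 15.3, 16.1 and 17.4 TPM at standard oxygen, 16.2, 21.9 and 24.5 TPM in acute and 19.8, 24.0 and 25.9 TPM in chronic hypoxia. The chronic libraries did not overlap the standard ones, whereas the acute library of code X did. The chronic log2 fold change was 0.48 with an SE of 0.13. It passed with the code as a block (limma, adjusted p = 0.0262), not without one (0.106) and not with the block after rescaling (log2 0.31, adjusted p = 0.0835). The acute log2 fold change was 0.32 (limma, adjusted p = 0.809, or 0.301 with the code block). Ccdc77, on the opposite strand, shares 251 exon bases with Kdm5a, and 1.63% of the 75-base stretches of the longest Kdm5a transcript occur in it.

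Kdm5b followed the sample codes more than the groups. It measured 6.57, 7.95 and 15.0 TPM at standard oxygen, 10.9, 10.4 and 20.6 TPM in acute and 7.66, 8.11 and 17.2 TPM in chronic hypoxia. Code Z was the highest library of every group, at 2.06, 1.94 and 2.19 times the mean of codes X and Y in the 3 groups. Within the pairs the acute difference was 0.34 to 0.65 in log2, with a mean of 0.48 (limma, adjusted p = 0.959 without a block and 0.159 with the code block). Levels in chronic hypoxia were below those in acute hypoxia in 3 of 3 pairs, by a mean of 0.34 in log2 (limma, adjusted p = 0.643 without a block and 0.0751 with it). With the block and rescaling together that difference was −0.48 and passed (adjusted p = 0.0426).

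Kdm6b, the H3K27 demethylase, had a similar pattern over the libraries at a lower level. It measured 1.35, 1.39 and 3.87 TPM at standard oxygen, 2.61, 2.84 and 6.57 TPM in acute and 1.34, 1.77 and 4.90 TPM in chronic hypoxia. Code Z was again highest in every group, at 2.82, 2.41 and 3.15 times the mean of the other codes, and the groups overlapped. The acute differences within the pairs were close to each other, 0.62, 0.69 and 0.64 in log2. Their mean of 0.65 had an SE of 0.41 without a block and 0.13 with the code block, and passed in neither fit (limma, adjusted p = 0.908 and 0.149). Chronic levels were below acute ones in 3 of 3 pairs (mean −0.49 in log2, limma, adjusted p = 0.572 without and 0.0887 with the block), and the difference of chronic from standard oxygen was 0.16 (0.865). Antisense transcript Kdm6bos shares 286 exon bases with Kdm6b.

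Kdm5b and Kdm6b were the 2 of 10 members whose code Z libraries lay above all 6 others, against 14.5% of the 11065 genes with a mean of at least 1 TPM over all libraries. None lay below, against 5.21%. Over the 9 libraries the Pearson correlation of Kdm5b and Kdm6b was 0.987 on the log2(TPM + 1) scale, a description of libraries that share codes and treatments. Levels of C1qa and Mertk moved with code Z in the same libraries, in the opposite direction. The osteoclast markers, 2 of 3 with a mean of at least 1 TPM, summed to 35.1 to 52.5 TPM in code Z and to 8.22 to 13.7 TPM elsewhere. Their part in the Kdm5b and Kdm6b levels was not tested.

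**Figure D2:**
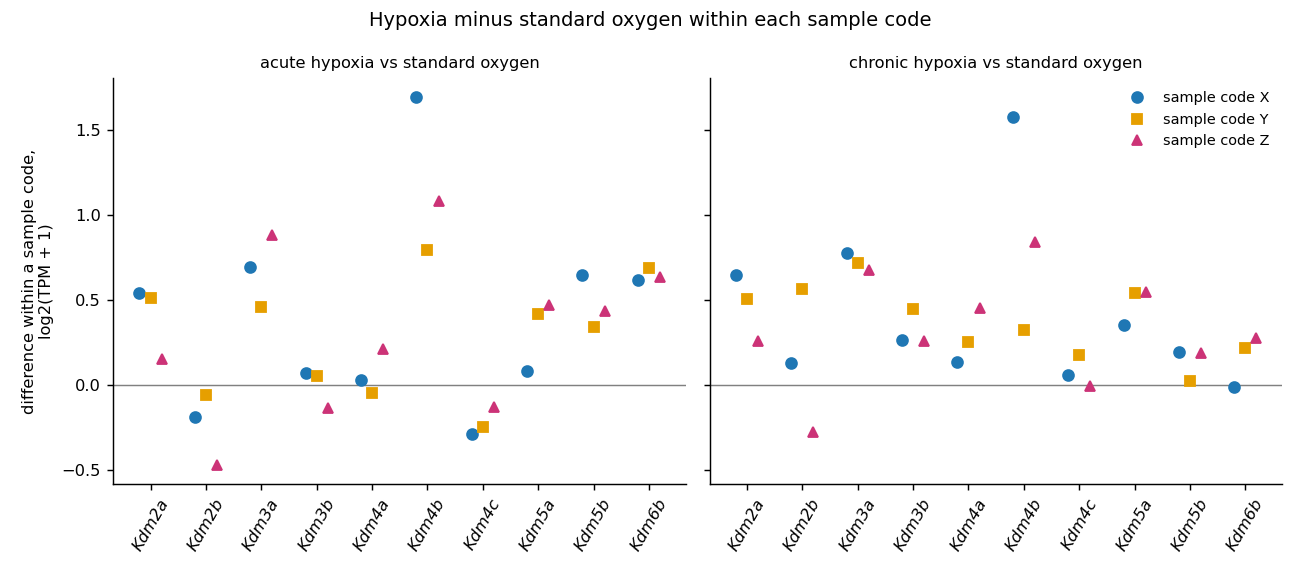
Difference in log2(TPM + 1) between hypoxia and standard oxygen within each sample code (y axis) for the 10 genes (x axis), with acute hypoxia on the left and chronic on the right. Each symbol is 1 code pair. For Kdm6b the 3 acute differences lie between 0.62 and 0.69, while for Kdm4b they range from 0.80 to 1.70.

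Setting acute hypoxia against standard oxygen asks which demethylase transcripts differ after 3 h at 1% oxygen. Over the members as a set, 6 of 10 were higher in all 3 code pairs (Kdm2a, Kdm3a, Kdm4b, Kdm5a, Kdm5b and Kdm6b), against 20.9% of the 10987 genes tested. Kdm2b and Kdm4c were lower in all 3, against 16.9%. Kdm3a and Kdm4b did not overlap standard oxygen on the higher side, against 7.63%, and Kdm4c on the lower side, against 4.85%. The median log2 fold change of the 10 was 0.36, beside 0.01 over all genes tested. None of the 10 passed at an adjusted p under 0.05 by limma without a block, where 0.0273% of all genes did, and none with the code block, where 0.71% did. At an unadjusted p under 0.05, 2 of 10 (Kdm3a and Kdm4b) stood beside 7.14% of all genes, and with the code block 6 of 10 beside 14.2%.

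Setting chronic hypoxia against standard oxygen asks the same after 7 days at 1% oxygen. All 10 log2 fold changes were above 0, with a median of 0.30, but so were 72.0% of the 11067 genes tested, whose median was 0.16. Rescaling the libraries to a common median ratio moved the median of all genes to 0.00, and 7 of 10 members then stayed above 0, with a median of 0.13. Kdm2a, Kdm3a, Kdm4a, Kdm4b and Kdm5a did not overlap standard oxygen on the higher side, 5 of 10 against 24.2% of all genes, and none on the lower side, against 5.39%. In all 3 code pairs 7 of 10 were higher, against 46.9%, and none lower, against 12.6%. By limma without a block 1 of 10 passed, Kdm3a, where 2.69% of all genes did, and 4 of 10 beside 22.9% had an unadjusted p under 0.05. With the sample code as a block 3 of 10 passed, Kdm2a, Kdm3a and Kdm5a, all higher, where 18.4% of all genes did, and 6 of 10 beside 38.4% had an unadjusted p under 0.05. That blocked count fell to 0 when code X or code Y was left out, and without code Z it was 5 (Kdm2a, Kdm3a, Kdm3b, Kdm4b and Kdm5a), where 35% of all genes passed. After rescaling 1 of 10 passed, Kdm3a, both without and with the block (log2 0.55, adjusted p = 0.0437 and 0.0211 by limma), where 2.12% and 11.5% of all genes did. Without code Z 2 of 10 passed, Kdm2a and Kdm3a (Kdm3a log2 0.75, limma, adjusted p = 0.00905), where 21.1% of all genes did. The neutrophil and precursor markers, 2 of 6 with a mean of at least 1 TPM and the other 4 under 1 TPM in every library, summed to 895 to 1595 TPM at standard oxygen, 937 to 1908 TPM in acute and 260 to 584 TPM in chronic hypoxia. Nearly all of that sum was 1 gene, S100a8, at 258 to 1906 TPM over all libraries, so it does not describe the list as a whole. The endothelium markers, 1 of 3 with a mean of at least 1 TPM, summed to 10.9 to 25.7 TPM in standard oxygen and acute hypoxia and to 39.3 to 42.8 TPM in chronic hypoxia. Of 9 macrophage markers, 2 were higher than in standard oxygen with the code block, beside 18.4% of all genes, and 0 passed without it. Against acute hypoxia, 3 were higher and 2 lower with the block, beside 15.5% of all genes. Without the block 1 was lower, beside 0.695%. The part of these lists in the chronic differences was not tested. Acute and chronic hypoxia were both set against the same standard oxygen libraries.

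Chronic against acute hypoxia compares long with short exposure in separate libraries. Kdm3b and Kdm4c were higher in chronic hypoxia without overlap, 2 of 10 against 22.3% of the 11087 genes tested, and none was lower without overlap, against 5.5%. Kdm4b, Kdm5b and Kdm6b were lower in 3 of 3 code pairs, against 12.9% of all genes, and Kdm2b, Kdm3b, Kdm4a, Kdm4c and Kdm5a higher in 3 of 3, against 43.5%. None of the 10 passed by limma without a block, where 0.695% of all genes did, or with the code block, where 15.5% did. With block and rescaling together 1 of 10 passed, Kdm5b, where 9.79% did. At an unadjusted p under 0.05 these counts were 2 of 10 beside 20.8% and 6 of 10 beside 35.7%. The members' median was 0.11, beside 0.14 over all genes, and both were near 0 after rescaling (−0.04 and 0.00).

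**Figure D3:**
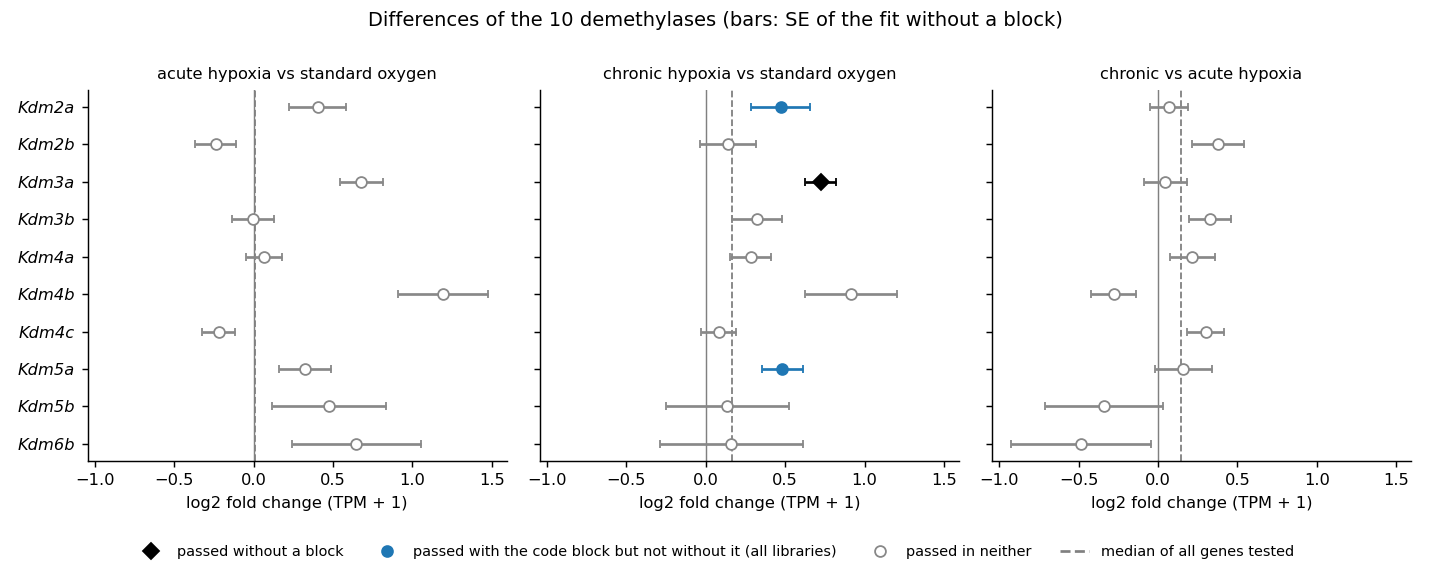
Log2 fold change of TPM + 1 (x axis) for each demethylase (y axis) in the 3 comparisons. Symbols are differences of group means (n = 3 per group), bars are 1 SE of the fit without a block, and the dashed line is the median of all genes tested. The chronic difference of Kdm3a is 0.72 and passed without a block, those of Kdm2a and Kdm5a over all 6 libraries passed with the sample code as a block and not without it, and Kdm4b has the largest acute difference at 1.19.

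Genes whose profile over the 9 libraries was most like that of Kdm4b, the member with the widest range of group means, were taken from the 7099 genes with a mean of at least 10 TPM. The 5 with the highest Pearson r were Runx3 (0.966), a transcription factor gene, the heat-shock co-chaperone gene Dnajb1 (0.951), Rassf1 (0.928), the RNA polymerase II subunit gene Polr2d (0.927) and the ubiquitin ligase gene Wwp2 (0.920). Runx3 measured 6.29, 10.4 and 10.6 TPM at standard oxygen, 15.1, 19.9 and 16.5 TPM in acute and 13.4, 13.2 and 17.8 TPM in chronic hypoxia. Like Kdm4b, all 5 had their lowest library in standard oxygen at code X, which follows in part from choosing them by likeness over these libraries. The correlations describe libraries that share groups and codes.

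**Figure D4:**
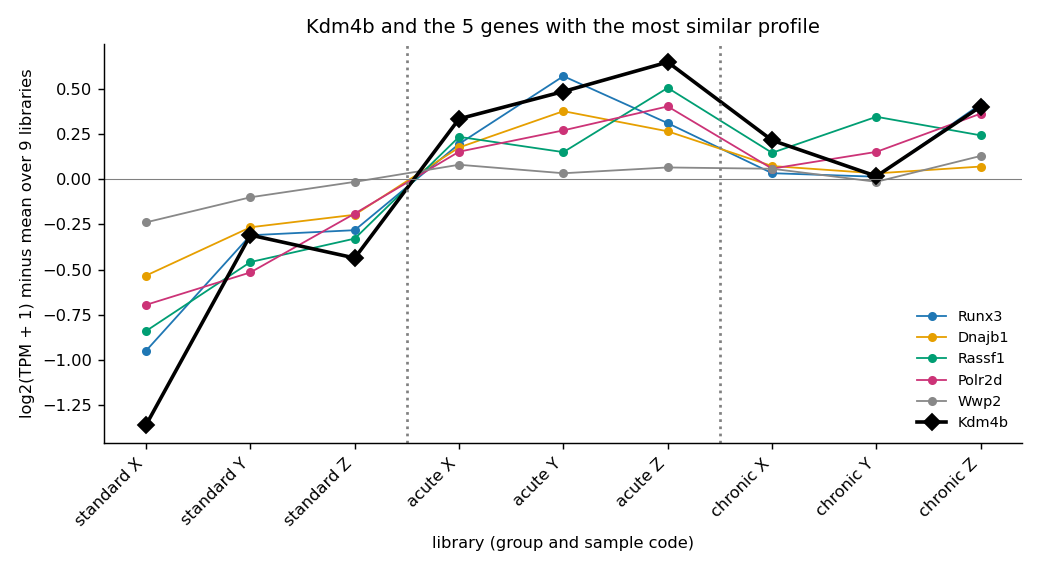
Deviation of log2(TPM + 1) from the mean over 9 libraries (y axis) for Kdm4b (black) and the 5 genes most like it, by library (x axis); lines only guide the eye, since libraries of a group have no order. All 6 are lowest in the standard library of code X, where Kdm4b measures 7.06 TPM, and the 5 were chosen by likeness over these same libraries.

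Of 13 further JmjC demethylase genes, 9 had a mean high enough to be tested and none passed without a block in any comparison when all 6 libraries of a comparison were fitted. Without code Z, 1 of 9 passed in chronic against standard oxygen, Phf8, where 21.1% of all genes did. Kdm5c, an X-linked H3K4 demethylase, was at 19.2 to 29.2 TPM and Kdm6a, the H3K27 demethylase related to Kdm6b, at 13.9 to 19.8 TPM, whereas Kdm4d did not exceed 0.0774 TPM and the Y-linked Kdm5d and Uty were at most at 0.650 and 0.824 TPM. The median acute log2 fold change of these 9 was −0.05, with 2 of 9 above 0. With the code block Riox1, a ribosomal oxygenase gene, was higher in chronic than in acute hypoxia (0.48, limma, adjusted p = 0.0429), beside 15.5% of all genes. That call was lost with the block after rescaling (0.34, adjusted p = 0.119) and with the block without code X, Y or Z (0.179, 0.0819 and 0.0630). Of 8 other JmjC proteins, Jmjd6, a lysyl hydroxylase gene, passed against standard oxygen with the code block and not without it when all 6 libraries of a comparison were fitted. It measured 10.4, 12.8 and 16.6 TPM at standard oxygen, 23.5, 23.7 and 32.4 TPM in acute and 19.3, 22.7 and 27.6 TPM in chronic hypoxia. No hypoxic library of Jmjd6 overlapped the standard group, and its log2 fold changes were 0.95 and 0.77 (limma, adjusted p = 0.0320 and 0.0119 with the code block, 0.232 and 0.0996 without). Without code Z it passed without a block (limma, 0.0280 and 0.0219), and so did Jarid2 in chronic hypoxia. In those fits 2.95% of all genes passed in acute and 21.1% in chronic hypoxia. The blocked calls of Jmjd6 were lost without code X or Y (0.221 and 0.197 in acute, 0.0628 and 0.0840 in chronic hypoxia). Of the TET DNA dioxygenases, which use the same co-substrates, 2 of 3 were tested and none passed in either fit, with or without code Z.

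The enzymes that write the marks were examined beside the erasers. Of 23 methyltransferase and Polycomb genes, all tested, none passed without a block in any comparison when all 6 libraries of a comparison were fitted. An unadjusted p under 0.05 was found for 1 beside 7.14% of all genes in acute against standard, 6 beside 22.9% in chronic against standard and 9 beside 20.8% in chronic against acute. Without code Z, Kmt2c and Setd2 passed in chronic against standard oxygen, 2 of 23 beside 21.1%, and Ezh2, Nsd3 and Setd2 against acute hypoxia, 3 of 23 beside 16.3%. In chronic hypoxia all 23 were above 0 against standard oxygen, with a median of 0.29 beside 0.16 for all genes. With the code block 6 of 23 passed beside 18.4% of all genes, all higher: Ash1l, Eed, Ezh2, Kmt2c, Nsd3 and Setd2. None of the 6 passed with the block after rescaling (limma, adjusted p from 0.0637 for Ezh2 to 0.196 for Nsd3) or with the block without code X or Y. Against acute hypoxia 7 of 23 passed with the block beside 15.5% of all genes, all higher: Ehmt2, Ezh1, Ezh2, Nsd3, Phf19, Setdb1 and Suv39h1. Of the 23, Ezh2 alone passed with the block after rescaling and with the block without code Y, and none did without code X. Ezh2, which methylates the H3K27 that Kdm6b demethylates, measured 8.12, 5.35 and 8.89 TPM at standard oxygen, 4.86, 5.68 and 6.92 TPM in acute and 11.1, 11.5 and 17.7 TPM in chronic hypoxia. Its chronic libraries lay above all others, by 1.06 in log2 over acute hypoxia (limma, adjusted p = 0.0122 with the code block and 0.0733 without) and by 0.77 over standard oxygen (0.0301 and 0.133). After rescaling with the block, the difference from acute hypoxia passed (0.92, adjusted p = 0.0180) and that from standard oxygen did not (0.60, 0.0637). Eed, a subunit of the same Polycomb complex, was at 23.9 ± 4.60 TPM in standard oxygen and 37.2 ± 3.64 TPM in chronic hypoxia, and the H3K36 methyltransferase Setd2 at 12.8 ± 0.630 and 18.3 ± 1.30 TPM (SD, n = 3). Most cell-cycle genes moved in the same direction. With the code block 4 of 5 passed as higher after 7 days of hypoxia against standard oxygen, beside 18.4% of all genes. Against acute hypoxia 4 of 5 also did, beside 15.5%, and none passed without the block. Whether these calls hold after rescaling or without 1 code was not examined. The summed cell-cycle genes measured 336 to 435 TPM at standard oxygen, 395 to 412 TPM in acute and 415 to 519 TPM in chronic hypoxia. The chronic sums overlapped those of standard oxygen. The part of the cell-cycle genes in the methyltransferase differences was not tested. Of the flavin-dependent demethylases and their partners, 5 of 5 were tested. With the code block 2 of 5 passed in chronic hypoxia against standard oxygen, beside 18.4% of all genes. These were Hdac1 and Hdac2, both higher (0.39 and 0.43, limma, adjusted p = 0.0256 and 0.0261). With all 6 libraries and no block they did not pass (limma, 0.222 and 0.120). Without code Z and no block they did (0.0446 and 0.0347), beside 21.1% of all genes. With the block after rescaling (0.118 and 0.0978) or with the block without code X or Y they did not.

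Known hypoxia-induced genes give the scale of the response in the same libraries. Bnip3, a mitophagy receptor gene, had means of 74.3 ± 24.4, 340 ± 66.3 and 485 ± 64.4 TPM at standard oxygen, acute and chronic hypoxia (SD, n = 3). Egln3, an oxygen-sensing prolyl hydroxylase gene, went from 9.08, 9.75 and 30.7 TPM through 111, 110 and 231 TPM to 562, 537 and 514 TPM. Of 10 such genes, 1 passed in acute hypoxia without a block, beside 0.0273% of all genes, and 7 with the code block, beside 0.71%. In chronic hypoxia 9 passed in both fits, beside 2.69% and 18.4%. Without code Z and no block, 8 passed in acute and 9 in chronic hypoxia, beside 2.95% and 21.1%. The 10 genes had median log2 fold changes of 1.37 in acute and 1.52 in chronic hypoxia. The largest changes among the demethylases, 1.19 for Kdm4b in acute and 0.91 in chronic hypoxia, were below these medians.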

How the data were processed

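RNA was sequenced in 75-base paired-end reads from 9 libraries, 3 per group. The authors deposited TPM values in 3 tables, 1 per pair of groups, with 34866 genes each, and a sample's values were identical between tables. Per the submitters' processing notes, FastQC, STAR and featureCounts were used with the GRCm38 build; the step that made TPM, the annotation and the strand setting are not given in the sources used here. TPM keeps no depth, so the precision of single values is unknown. Of the rows, 34582 matched a symbol.

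Differences were tested on log2(TPM + 1) with limma 3.58.1 in R 4.3.3 (two-sided, moderated with an intensity trend), for genes with a mean of at least 1 TPM over the 6 samples compared, without a block. A gene passed at a Benjamini-Hochberg adjusted p under 0.05 over all genes tested. The pseudocount of 1 understates changes of low genes. Fits used the samples of the 2 groups compared, and the script was tested on simulated data. Fits without the libraries of 1 code, with or without the block, held only 2 libraries per group. The rescaling divided each library by its median ratio to the gene-wise geometric mean. It moved the median log2 fold change of all genes from 0.16 and 0.14 to near 0 in chronic against standard oxygen and against acute hypoxia.

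Libraries with the same code deviated together from their group means (r from 0.378 to 0.633 over genes, above 0.1 in every pair), so the codes were taken to pair the samples, as read from the descriptions and these correlations. The replicates are labelled biological. Named genes were the 10 demethylases, up to 3 genes of each fixed list among those that passed in any comparison with or without the code block, taken by size of change, and the 5 genes most like Kdm4b; genes named otherwise, the overlapping Rnf34 and Ccdc77 and the further JmjC genes included, were chosen after their values were seen. The demethylases and the lists were chosen with earlier results of these data known. Promoter windows are from RefSeq, and gene positions and exons from GENCODE M21. The 75-base stretches of each member's longest GENCODE M21 transcript were searched in the transcripts of the other listed genes.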

Additional observations from a re-analysis of the deposited data

How the results depend on the processing

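Over 30 gene and comparison pairs, 523 of 567 alternative log2 fold changes kept their direction and side of the threshold, 9 passed newly, 7 no longer passed and 28, in 9 pairs, changed sign. In acute against standard oxygen the sign changed for Kdm3b without code Z (0.0602) and with single libraries left out (-0.0811 to 0.1115, including 0.0364 and 0.0066), and for Kdm4a without code Z (-0.0088) and with single libraries left out (-0.0214 to 0.1125). In chronic against standard oxygen, rescaling gave -0.0307 for Kdm2b, -0.085 for Kdm4c and -0.028 for Kdm5b, with or without the code block. The block without code Y gave -0.0725 for Kdm2b. Leaving out single libraries gave -0.2099 to 0.4553 for Kdm5b, including -0.0834, and -0.2439 to 0.5068 for Kdm6b, including -0.0179 and -0.0075. In chronic against acute hypoxia, rescaling gave -0.0817 for Kdm2a and -0.1064 for Kdm3a, the block without code Y gave -0.0611 for Kdm3a, and leaving out single libraries gave -0.0118 to 0.1354 for Kdm2a, -0.0481 to 0.1743 for Kdm3a and -0.005 to 0.2788 for Kdm5a. Genes passing in acute against standard oxygen were 3 without a block, 5 without the trend, 21 after rescaling, 25 with all 9 samples in the fit, 319 without code Z and 0 to 33 with 1 library left out. In chronic against standard oxygen they were 298 (232 higher and 66 lower, but 115 and 119 after rescaling), 120 without a filter, 166 without the trend, 764 with all 9 samples, 2300 without code Z and 1 to 522 with 1 library left out. In chronic against acute hypoxia they were 77 (61 higher and 16 lower, but 33 and 48 after rescaling), 7 without a filter, 25 without the trend, 415 with all 9 samples, 1788 without code Z and 1 to 308 with 1 library left out. With the replicate block by sample code these counts were 78, 2039 and 1724, and with rescaling as well 54, 1270 and 1084. Alternatives chosen after seeing the data kept that block without 1 code. Without code Z they gave 327, 3828 and 2751 genes. Without code X they gave 7 in chronic against acute hypoxia, and without code Y 18 in chronic against standard oxygen and 513 in chronic against acute hypoxia. Of the demethylases, 1 passed in chronic against standard oxygen, 3 with the block, 2 without code Z, 0 to 1 with 1 library left out, and 0, 0 and 5 with the block without code X, Y or Z. In chronic against acute hypoxia 0 passed, but 1 (Kdm5b) with block and rescaling and 1 (Kdm2b) with the block without code Z. A replicate block by the number in the titles gave 0 genes in acute and 1 in chronic against standard oxygen, 0 of them demethylases, and 1724 in chronic against acute hypoxia, where title and code pair the same libraries. The title numbers do not pair the libraries of standard oxygen with the others: deviations of 2 of 3 same-numbered pairs correlated negatively in each comparison (r from -0.515 to -0.282), and in neither did every library correlate best with its own number. The unknown depth leaves the counting error of single values unknown for every gene.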
